A study of Mus musculus with 6 samples.

Results

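The mitochondrial ribosomal proteins are the nuclear-encoded subunits of the ribosome that works inside mitochondria. Their genes were taken here as all probe sets annotated to exactly 1 gene symbol that starts with Mrpl or Mrps followed by a digit, with Mrpl counted as the large subunit and Mrps as the small subunit. The rule found 156 of 45101 probe sets and 76 of 18194 genes. Of these, 104 probe sets and 47 genes belonged to the large subunit and 52 probe sets and 29 genes to the small subunit. A further 4 probe sets were annotated to a member together with another gene and were set aside.

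The study set livers of mice that lack coenzyme Q synthesis in hepatocytes beside livers of control mice, to look for metabolic pathways that change after the mutation. RNA of 3 mutants, B6.Alb/cre,Pdss2loxP/loxP, was compared with RNA of 3 controls, B6.Pdss2loxP/loxP, with 1 Affymetrix mouse array for each mouse. Both groups carried the loxP-flanked Pdss2 alleles, and the mutants also carried cre recombinase under the albumin promoter, which is active in hepatocytes. Recombination in the other cells of the liver was not measured in these files. All mice were males, and the ages were 176, 178 and 224 days for mutants 1, 2 and 3 and 209, 213 and 140 days for controls 1, 2 and 3. Control 1 is labelled as the concurrent control of mutant 3. The genotypes lived in separate cages, so that cage and genotype cannot be told apart.

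The mitochondrial ribosome makes the few proteins that mitochondrial DNA encodes, which are subunits of the respiratory chain and of ATP synthase. Its ribosomal RNAs come from mitochondrial DNA, but each of its proteins is encoded in the nucleus, made in the cytosol and imported. Some of these proteins descend from those of the bacterial ribosome, and others are found only in mitochondria. Coenzyme Q carries electrons from complexes I and II to complex III of the same respiratory chain, and its isoprenoid tail is built by an enzyme that holds the Pdss2 protein.

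A value below is a log2 probe set intensity, and a difference is the mean of the 3 mutants minus the mean of the 3 controls on that scale. Each gene was read on its brightest probe set, judged by the mean of all 6 arrays. A gene is said to rise or fall only where limma, fitted over all 18194 genes, gave a Benjamini-Hochberg adjusted p under 0.05. The sign of each difference follows the sample labels. For mitochondrial ribosomal and respiratory chain genes its median was negative, whereas the study reported its ribosome and oxidative phosphorylation pathways as upregulated. The study's measure was gene set enrichment over ranked genes, not a median difference. The genes of those pathways are not listed in the sources used here. The median of 42 cytosolic ribosomal protein genes was -0.14, with 24 lower and 18 higher. Why the directions differ was not tested. Over all genes the median difference was 0.17, and 4.92% rose and 4.11% fell. Array medians ran from 6.12 to 6.24 in mutants and from 5.92 to 6.12 in controls. The brightest probe set of Pdss2 read 6.94, 6.88 and 7.05 in the mutants and 7.46, 7.47 and 7.56 in the controls, a difference of -0.54 (standard error 0.17, adjusted p = 0.0792 from limma). Its other probe sets differed by 0.35 and 0.40 with overlapping groups. The sources used here do not say whether any of them lies in the deleted part of the gene. By quantitative PCR, another measure than the array, the paper reported a strong loss of Pdss2 transcript in livers of this mutant genotype. It also reported very little coenzyme Q9 in such livers. Of 9 measured hepatocyte markers, none rose or fell by limma and 0 had an unadjusted p under 0.05, and 8 of the 9 had a lower mean in the mutants, with a median difference of -0.25. Their mean value was 12.75, 12.33 and 12.54 in the mutants and 12.82, 12.83 and 12.80 in the controls, so that every mutant lay below every control. The part of this in the ribosomal genes' results was not tested. In whole liver RNA, fewer cells of a type and less RNA per cell cannot be told apart.

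Some short sequence motifs were more frequent near the start sites of these genes than near those of all genes. RefSeq promoters of the mouse build GRCm38.p6, which run from 250 bases before to 50 bases after a gene's start, were at hand for 67 of the 76 genes, 12 of them among the genes that rose or fell. Stretches just before the start are shown for genes whose transcripts changed and for a pair of member genes that share a promoter. Each is written 5′ to 3′ on the strand of the gene up to the last base before its start, and the capitals mark a match to an NRF1 motif or an ETS motif. NRF1 and the ETS factor GABP are known as activators of nuclear genes for mitochondrial proteins.
Mrpl39 (chr16:84735245-84735374, minus strand, 1 NRF1 match, fell): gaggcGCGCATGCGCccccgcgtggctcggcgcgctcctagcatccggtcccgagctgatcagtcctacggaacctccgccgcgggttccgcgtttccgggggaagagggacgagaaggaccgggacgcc
Mrpl44 (chr1:79775928-79776017, plus strand, 1 NRF1 match, fell): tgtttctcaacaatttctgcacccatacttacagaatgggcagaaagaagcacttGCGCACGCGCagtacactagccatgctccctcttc
Mrpl3 (chr9:105053178-105053267, plus strand, 1 ETS match, fell): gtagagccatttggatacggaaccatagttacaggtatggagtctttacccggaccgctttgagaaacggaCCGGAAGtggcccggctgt
Mrpl43 (chr19:45006443-45006532, minus strand, ETS, fell): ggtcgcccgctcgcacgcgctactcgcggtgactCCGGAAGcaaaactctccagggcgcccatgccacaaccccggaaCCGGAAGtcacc
Mrpl52 (chr14:54426819-54426908, plus strand, 1 ETS match on the other strand, rose): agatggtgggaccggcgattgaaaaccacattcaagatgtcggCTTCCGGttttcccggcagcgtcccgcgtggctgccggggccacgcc
Mrpl46 (chr7:78783090-78783130, minus strand, no match, did not pass): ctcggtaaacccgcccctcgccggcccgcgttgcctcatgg

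The NRF1 motif was its usual palindrome with the fifth base left free, and in Mrpl44 the match reads on the opposite strand. The ETS motif was CCGGAAG. On either strand an ETS match lay in 25 of the 67 promoters, or 37.3%, against 12.9% of the promoters of 17491 protein-coding genes. An NRF1 match lay in 12, or 17.9%, against 7.17% of all. The motif AANATGGCG of YY1, a zinc finger factor, was in 11, or 16.4%, against 3.64%, and in 9 of these 11 genes a match began after the gene's start. The E-box CACGTG, searched beside these motifs, was in 5, or 7.46%, against 8.91%. At least 1 of the ETS, NRF1 and YY1 motifs was found in 40 of the 67 promoters. The matching share over all promoters was not computed, so this count has nothing to be set against. A match describes letters only, and binding was not measured.

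**Figure D1:**
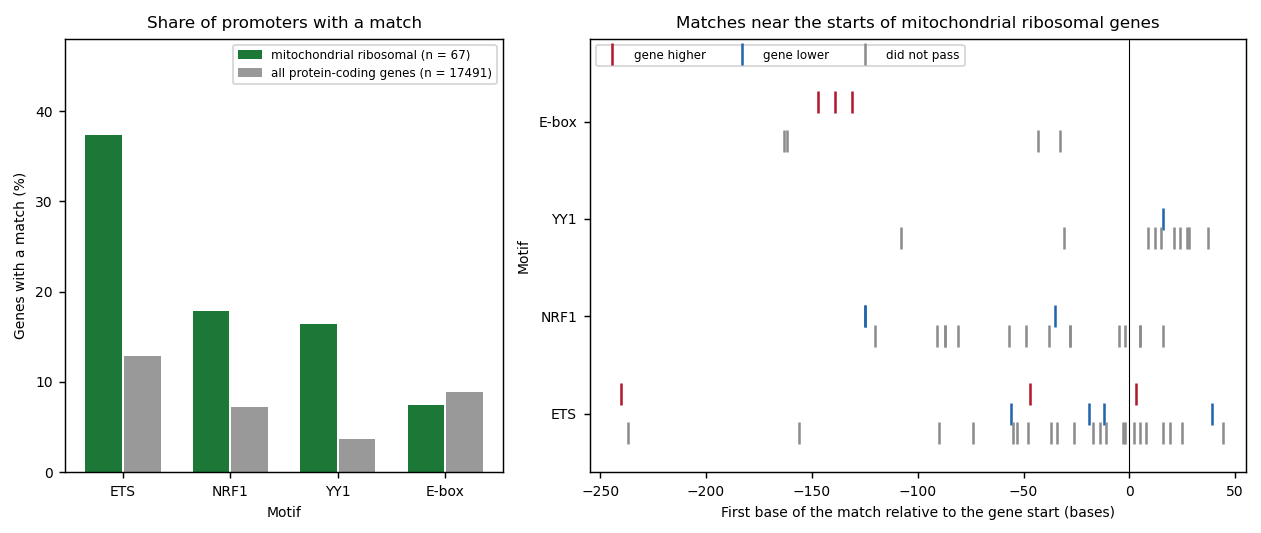
Left, share of promoters (vertical axis, percent) with a match to each of 4 motifs (horizontal axis) among 67 mitochondrial ribosomal genes (green) and 17491 protein-coding genes (grey). Right, position of each match relative to the gene start in bases (horizontal axis) for every motif (vertical axis), coloured by whether the gene was higher, lower or did not pass the test. The ETS bars are 37.3% and 12.9%, and matches of genes that rose and of genes that fell both occur.

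Genes with and without each motif were set side by side. The median difference was -0.49 in the 25 genes with an ETS match and -0.51 in the others with a promoter. By subunit it was -0.81 with and -0.56 without an ETS match in the large subunit, and -0.22 with and -0.46 without in the small subunit. It was -0.71 in the 12 genes with an NRF1 match and -0.42 in the rest, -0.30 and -0.51 for YY1, and -0.08 and -0.54 for the E-box. The widest of these gaps was that of the E-box, held by 5 genes, and none of them was tested. Of the 9 genes that fell and had a promoter, 3 held an ETS match and 2 an NRF1 match, and of the 3 that rose, 2 held an ETS match and 0 an NRF1 match. Many of these genes also start back to back with a neighbour. A gene transcribed in the opposite direction began within 1000 bases of the start in 23 of the 67, or 34.3%, against 8.48% of all protein-coding genes. Mrpl46 and Mrps11, which encode a protein of each subunit, start 42 bases apart, and their differences were -0.16 and 0.22 with overlapping groups. Mrpl49 starts 192 bases from Fau, a gene for a cytosolic ribosomal protein, and Mrpl49 fell by 1.46 while Fau differed by 0.04. Mrpl18 starts 238 bases from Tcp1, a chaperonin gene, and rose by 1.39 where Tcp1 differed by 0.02. Mrpl43 starts 116 bases from Twnk, which encodes the mitochondrial DNA helicase, and fell by 1.00 beside a difference of 0.08 in Twnk. Some other pairs shared a sign. Mrpl32 differed by -0.51 and its neighbour Psma2 by -1.48 (adjusted p = 0.048 from limma). Mrpl47 differed by -0.29 with Ndufb5 at -0.996, Mrpl41 by -0.79 with Pnpla7 at -0.68, and Mrpl21 by 0.68 with Ighmbp2 at 0.79. Of these genes only Psma2 passed. Others differed in sign, such as Mrpl57 at -1.27 with Ska3 at 0.21 and Mrpl51 at -1.30 with Ncapd2 at 0.10. Whether neighbours move together was not tested.

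Of the 47 large subunit genes, 7 fell (14.9%) and 3 rose (6.38%). The 7 were Mrpl49, Mrpl44, Mrpl3, Mrpl11, Mrpl43, Mrpl19 and Mrpl39, and the 3 were Mrpl18, Mrpl52 and Mrpl2. Over the whole subunit 43 of 47 genes had a lower mean in the mutants, against 35.7% of all genes, and the median difference was -0.57, which is 67.4% of the control level. All 3 mutants lay below all 3 controls in 24 genes, or 51.1%, against 14.1% of all genes, and above them in 3, against 23.3% of all genes. At an unadjusted p under 0.05, 21 genes were lower and 3 higher, where all genes gave 12.6% lower and 18.4% higher.

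Of the 29 small subunit genes, 6 fell (20.7%) and none rose by limma, and at an unadjusted p under 0.05, 13 were lower and 0 higher. The 6 were Mrps28, Mrps10, Mrps34, Mrps30, Mrps35 and Mrps33. A lower mean in the mutants was found in 23 genes, and the median difference was -0.49, or 71.2% of the control level. The mutants lay below the controls without overlap in 15 genes, or 51.7%, and above them in 1, Mrps5. Mrps30 and Mrps18a carry a small subunit name but are built into the large subunit, and Mrps36 is part of the 2-oxoglutarate dehydrogenase complex. With these placed by structure, 8 of 49 large and 5 of 26 small subunit genes fell.

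**Figure D2:**
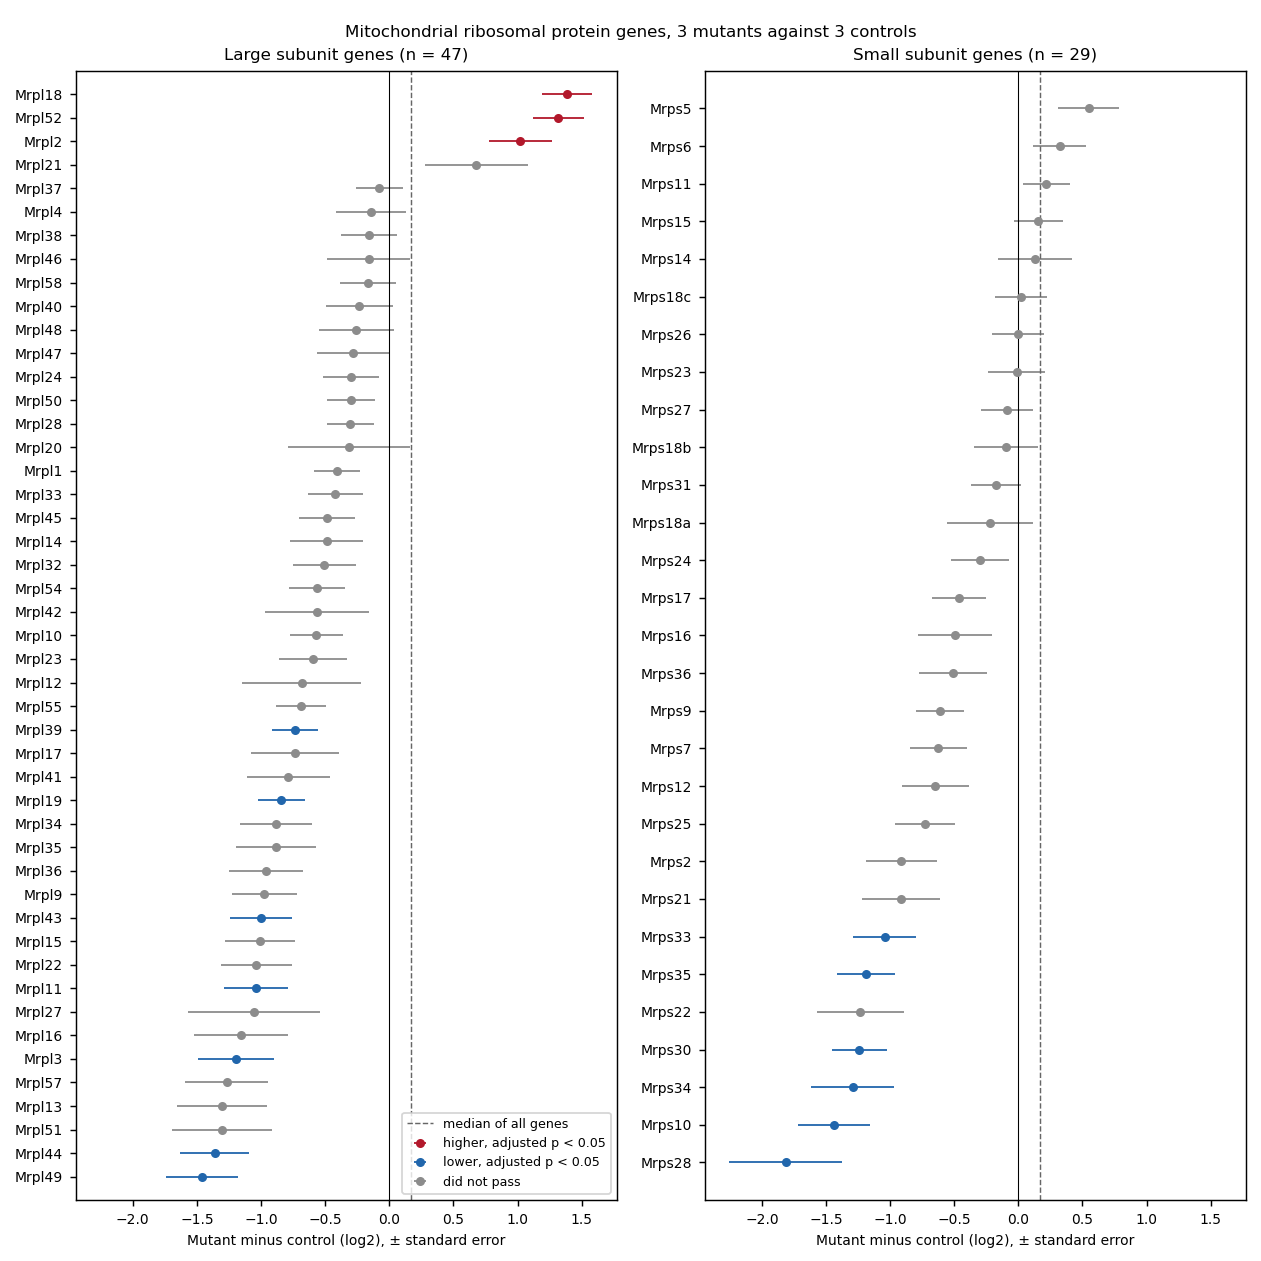
Mutant minus control difference on the log2 scale with its standard error (horizontal axis) for each large subunit (left) and small subunit gene (right), 3 mice in each group. Red marks genes that rose, blue genes that fell and grey genes that did not pass, and the dashed line is the median of all genes at 0.17. The points run from -1.46 to 1.39 on the left and from -1.81 to 0.55 on the right, most of them below 0.

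The genes with bacterial relatives were 46 of the 76. Of them, 5 fell (10.9%) and 2 rose (4.35%), with a median difference of -0.54. Over all genes, 4.11% fell, 4.92% rose and 35.7% had a lower mean in the mutants. The mitochondria-specific proteins were 28 genes. Of these, 8 fell (28.6%) and 1 rose (3.57%), with 27 lower in the mutants and a median of -0.56. Among genes with a small subunit name, 4 of the 10 mitochondria-specific genes fell, all 10 had a lower mean and the median was -0.89. Mrps30, which is built into the large subunit, is among these 4. Of the 18 genes with a small subunit name and a bacterial relative, 2 fell, 12 were lower and the median was -0.38. These 18 include Mrps18a, which is also built into the large subunit. The difference between these classes was not tested.

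Proteins near the peptidyl transferase centre, where the peptide bond is made, moved in different directions. Mrpl3 read 8.02, 6.84 and 7.30 in mutants 1, 2 and 3 and 8.51, 8.62 and 8.60 in controls 1, 2 and 3, and fell by 1.19 (standard error 0.30, adjusted p = 0.0475 from limma). Mrpl2 read 10.19, 11.06 and 10.53 in the mutants and 9.46, 9.63 and 9.63 in the controls, and rose by 1.02 (standard error 0.25, adjusted p = 0.0451 from limma). The groups did not overlap in either gene, and mutant 1 lay nearest to the controls in both. Mrpl27, whose bacterial relative reaches into the same centre, read 8.47 in mutant 1, above 2 of the controls, but 6.73 and 6.29 in mutants 2 and 3, against 8.07, 8.05 and 8.54 in the controls. Its difference of -1.05 did not pass (adjusted p = 0.206 from limma).

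The stalk of the large subunit recruits the translation factors, and Mrpl11 forms its base. Mrpl11 read 8.90, 8.17 and 8.09 in the mutants and 9.46, 9.35 and 9.47 in the controls, and fell by 1.04 to 48.6% of the control level (adjusted p = 0.0439 from limma). Mutants 2 and 3 were more than 1 log2 unit below every control, and mutant 1 lay between them and the controls. Mrpl10, the anchor of the stalk, differed by -0.57 without overlap and did not pass (adjusted p = 0.11 from limma). Mrpl12, the stalk protein itself, read 8.64, 7.44 and 6.71 in the mutants and 8.14, 7.97 and 8.74 in the controls. Mutant 1 stood among the controls for Mrpl12 and the others below them, and the difference of -0.68 did not pass (adjusted p = 0.354 from limma).

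Mrpl18 had the largest rise of the 76 genes. Its bacterial relative binds the 5S ribosomal RNA. It read 10.64, 10.90 and 10.97 in the mutants and 9.60, 9.22 and 9.53 in the controls, a rise of 1.39 (standard error 0.20, adjusted p = 0.0183 from limma) to 261% of the control level. Each mutant was more than 1 log2 unit above each control. Mrpl18 was read by a single probe set, as was Mrpl2, so neither has a second reading.

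Mrpl19, the relative of bacterial L19, read 6.37, 6.19 and 6.13 in the mutants and 7.20, 7.11 and 6.90 in the controls, and fell by 0.84 (adjusted p = 0.0376 from limma). The mutants were close together here, with mutant 1 no nearer to the controls than 0.5 log2 units. Around the exit tunnel, through which the new chain leaves, Mrpl22, Mrpl23 and Mrpl24 differed by -1.04, -0.59 and -0.30 and none passed, with adjusted p of 0.0558, 0.175 and 0.386 from limma. The groups did not overlap in Mrpl22 and Mrpl23. Mrpl45, which ties the ribosome to the inner membrane, differed by -0.48 without overlap (adjusted p = 0.174 from limma).

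The largest fall in the large subunit was that of Mrpl49, a mitochondria-specific protein. Its values were 7.25, 6.21 and 6.42 in the mutants and 8.10, 8.11 and 8.06 in the controls, a difference of -1.46 (standard error 0.28, adjusted p = 0.0294 from limma). Its second probe set read 6.69, 6.85 and 6.13 against 6.44, 6.41 and 6.66, with a difference of 0.05 and overlapping groups, and the mean of both differed by -0.70 (adjusted p = 0.0839 from limma). On the brightest, the controls lay within 0.05 of each other while the mutants spread over more than 1 log2 unit (SD 0.55, n = 3, against 0.02, n = 3, in the controls). Mrpl44, a protein with the fold of an RNase III, read 7.85, 6.93 and 7.04 in the mutants and 8.53, 8.75 and 8.62 in the controls and fell by 1.36 to 38.9% of the control level (adjusted p = 0.0308 from limma). Mrpl43 read 7.61, 7.09 and 6.95 against 8.34, 7.95 and 8.36 and fell by 1.00 (adjusted p = 0.0435 from limma). Both showed the order of Mrpl3 and Mrpl11, with mutant 1 the highest mutant.

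Mrpl39, which is related to threonyl-tRNA synthetase, kept its mutants together. It read 10.52, 10.47 and 10.55 in the mutants and 11.27, 11.40 and 11.08 in the controls, and fell by 0.73 to 60.2% (adjusted p = 0.0457 from limma). Mrpl51 read 9.90, 8.86 and 8.21 against 10.26, 10.24 and 10.38. Its difference of -1.30 without overlap did not pass (standard error 0.39, adjusted p = 0.0692 from limma). Mrpl58, a peptidyl-tRNA hydrolase that became part of the ribosome, differed by -0.17 with overlapping groups. Just outside the threshold on the lower side were Mrpl57 at -1.27 (adjusted p = 0.0507 from limma), Mrpl9 at -0.97 and Mrpl13 at -1.30 (adjusted p = 0.0557 from limma), all without overlap. The other probe sets of Mrpl9 went the other way, by 0.22 with overlap and by 0.49 without. That of Mrpl57 differed by -0.02 with overlap. Those of Mrpl13 differed by -0.95 and -0.04 with overlap and by -1.53 without.

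Mrps28, the relative of bacterial S1, had the largest fall of all 76 genes. It read 7.66, 5.99 and 5.91 in the mutants and 8.31, 8.33 and 8.36 in the controls, and fell by 1.81 (standard error 0.44, adjusted p = 0.0451 from limma) to 28.5% of the control level. Most of that spread was among the mutants, with mutant 1 more than 1.5 log2 units above the other two and the controls within 0.1 of each other. Mrps10, a protein of the head of the small subunit, read 7.69, 6.85 and 6.67 against 8.45, 8.46 and 8.61 and fell by 1.44 (adjusted p = 0.0307 from limma). Mrps12, of the decoding centre, differed by -0.65 without overlap and did not pass (adjusted p = 0.138 from limma).

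The other genes with a small subunit name that fell are mitochondria-specific, and Mrps30 among them is built into the large subunit. Mrps30 had the smallest adjusted p among the genes that fell, with 7.52, 6.91 and 6.99 in the mutants and 8.38, 8.40 and 8.36 in the controls, a fall of 1.24 (standard error 0.21, adjusted p = 0.0248 from limma). Mrps35 read 6.96, 6.62 and 6.24 against 7.74, 7.75 and 7.88 and fell by 1.19 (adjusted p = 0.0288 from limma). In both, the highest mutant lay at least 0.7 log2 units below the lowest control. Mrps33 read 8.63, 7.94 and 7.88 against 9.09, 9.18 and 9.32 and fell by 1.04 (adjusted p = 0.0420 from limma). Mrps34 read 8.39, 7.72 and 7.22 against 8.996, 8.79 and 9.42 and fell by 1.29 (adjusted p = 0.0475 from limma). Mrps22 differed by -1.23 without overlap and did not pass (adjusted p = 0.0575 from limma).

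Some other genes with a small subunit name did not pass, and Mrps5 among them had the highest difference of the 29. Mrps5, whose bacterial relative lines the path of the messenger RNA, read 7.71, 8.24 and 7.56 in the mutants and 7.15, 7.18 and 7.54 in the controls. All mutants were above all controls, by as little as 0.02 between mutant 3 and control 3, and the difference of 0.55 did not pass (adjusted p = 0.163 from limma). On its other probe sets Mrps5 differed by 0.51, 0.86 and 0.48, each without overlap, and by -0.06 with overlap. None of these passed limma over all probe sets. The paralogs Mrps18a, Mrps18b and Mrps18c, relatives of bacterial S18, differed by -0.22, -0.10 and 0.02 with overlapping groups, and adjusted p from limma was 0.693 or higher. Mrps27, a pentatricopeptide repeat protein, differed by -0.09 and Mrps23 by -0.01, both with overlap. Mrps36 read 7.99, 7.01 and 7.72 against 8.004, 8.16 and 8.09, a difference of -0.51 without overlap (adjusted p = 0.234 from limma). The signs of Mrps18a, Mrps18b, Mrps18c, Mrps23 and Mrpl58 changed under other settings.

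The mutants did not move together. Each value was set against the mean of its gene on all 6 arrays, and the median of these deviations was taken per array. For the large subunit it was 0.10, -0.42 and -0.67 for mutants 1, 2 and 3 and 0.30, 0.24 and 0.39 for controls 1, 2 and 3. For the small subunit they were 0.15, -0.24 and -0.53 in the mutants and 0.18, 0.24 and 0.27 in the controls. Both subunits thus showed the same order of the mutants, with mutant 1 next to the controls and mutant 3 farthest away. Mutant 1 was the highest of the mutants in 60 of the 76 genes, against 31.1% of all genes. Mutants 1, 2 and 3 were below every control in 41, 56 and 68 of the 76, where all genes gave 22.9%, 27.2% and 27.9%.

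**Figure D3:**
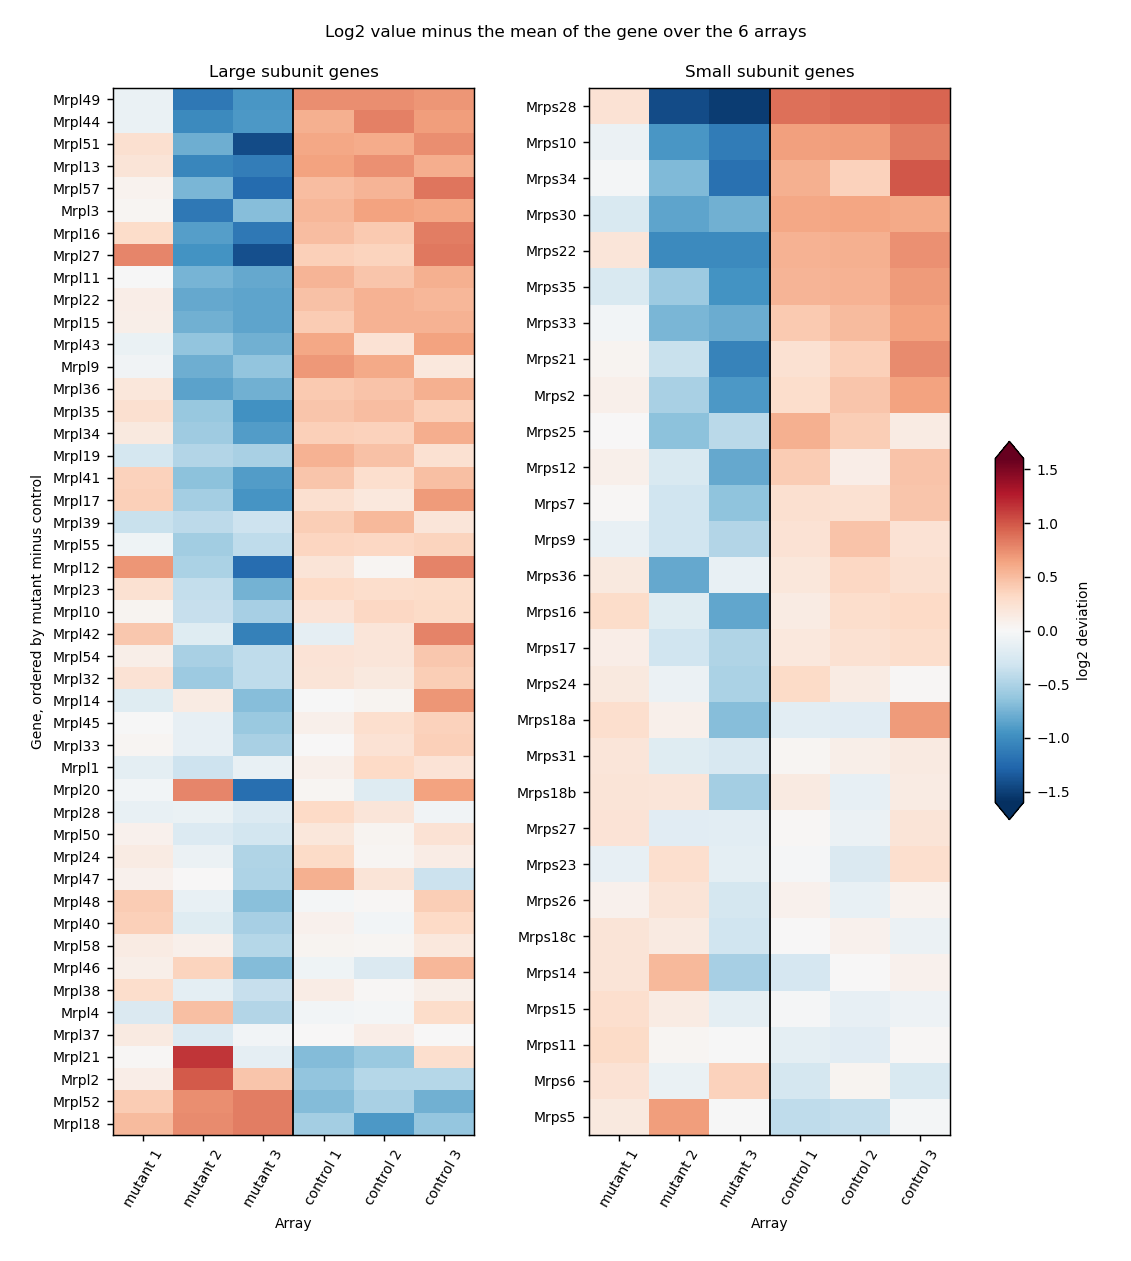
Log2 value of each gene (rows, ordered by mutant minus control) on each array (columns) as a deviation from the mean of that gene, for the large subunit (left) and the small subunit (right). Blue is below and red above the mean, on the scale of the colour bar. Mutants 2 and 3 are blue over most rows, mutant 1 is pale, and the lowest rows with Mrpl18, Mrpl52 and Mrpl2 run the other way.

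The count of genes that fell rested on single mice. Without mutant 1, 25 large and 11 small subunit genes fell, where 9.92% of all genes did. Without any other mouse, 0 of the 76 genes fell, and 0 to 3 of all genes fell without control 1 or 2, 32 without mutant 2, 26 without mutant 3 and 86 without control 3. The direction of the 16 genes that rose or fell was kept in every one of these fits. It could not turn, because the groups did not overlap in any of the 16. The median difference ran from -0.75 to -0.44 in the large and from -0.70 to -0.33 in the small subunit over the 6 fits. At an unadjusted p under 0.05, 27 to 44 of the 76 genes were lower and 3 to 5 higher when a mouse was left out.

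Signals of RNA and array quality moved with the groups. The 3′ minus 5′ signal of Gapdh was 0.45, -1.06 and -1.78 in the mutants and 2.31, 2.02 and 2.30 in the controls (exact two-sided permutation test, p = 0.1, the smallest that 3 mice against 3 allow). It took the same order among the mutants as the ribosomal genes. That of Actb was 2.60, 3.95 and 4.50 in the mutants and 3.82, 3.896 and 3.11 in the controls (exact permutation p = 0.8). Their part in the results was not tested.

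Markers of other liver cells were also higher on some arrays. Of 11 endothelial markers 4 rose (Stab1, Stab2, Ehd3 and Ptprb), and at an unadjusted p under 0.05, 6 were higher and 1 lower. The lower marker was Dnase1l3, which differed by -1.30 without overlap (adjusted p = 0.0534 from limma), and Kdr, Pecam1 and Clec4g overlapped between the groups. The mean value of the 11 was 8.23 to 8.89 in mutants and 7.76 to 8.12 in controls. Of 10 Kupffer cell markers Clec4f rose, with means of 7.05 to 7.63 in mutants and 6.50 to 7.01 in controls. Of 4 measured cholangiocyte markers Krt19 rose, with means of 6.24 to 6.65 in mutants and 5.88 to 6.01 in controls. None of the 7 stellate, 6 lymphocyte and 2 measured erythroid markers passed by limma, with 1, 1 and 0 at an unadjusted p under 0.05, and their means were 7.79 to 8.10, 5.60 to 5.94 and 7.03 to 7.82 in mutants and 7.69 to 7.99, 5.39 to 5.93 and 7.44 to 7.97 in controls. Whether cell makeup has a part in the ribosomal genes' results was not tested.

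Different probe sets of a gene did not always give the same reading. Of the 76 genes, 34 were read by 1 probe set and 42 by several, with up to 8 for Mrpl15. All probe sets of a gene had the same sign in 13 of the 42, and the brightest and the next brightest in 23. Of the 16 genes that rose or fell, 8 had several probe sets, and in 5 of these the next brightest had the same sign. Tested as single probe sets over all 34958 with 1 symbol, 7 of 156 were lower and 2 higher at the same threshold, against 1.68% and 2.11% of all probe sets. The groups did not overlap in 50 lower and 14 higher probe sets, against 12.5% and 20.8% of all.

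Mrpl52 was the brightest member and rose by 1.32 on its brightest probe set, where it read 12.56, 12.90 and 12.97 in the mutants and 11.45, 11.64 and 11.38 in the controls (adjusted p = 0.0185 from limma). On its second probe set it read 8.84, 8.48 and 7.77 in the mutants and 9.37, 9.25 and 9.43 in the controls, a difference of -0.98 the other way and also without overlap. The remaining probe sets differed by -0.20 and 0.30 with overlap. The rise of Mrpl52 thus belonged to 1 of 4 probe sets. Mrpl3 was similar in the other direction, with -1.19 on the brightest and 0.61 on a dimmer probe set, each without overlap, and -0.06 and -0.28 on the rest.

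Mrpl44 was lower on both of its bright probe sets, by -1.36 and -1.48 without overlap, and differed by -0.20 and 0.30 on the dim ones. Mrpl11 was likewise lower on both bright probe sets, by -1.04 and -0.93, and differed by -0.01 and -0.02 on the others. Mrpl39 was lower without overlap on both of its probe sets, by -0.73 and -1.35. In contrast Mrps14, of the small subunit head, differed by 0.13 with overlap on its brightest probe set and by -1.69 on the next, which read 6.92, 5.76 and 6.07 in the mutants and 7.83, 8.14 and 7.85 in the controls (adjusted p = 0.0395 from limma over all probe sets). Mrps14 was named after its values were seen. Mrpl19 was lower without overlap on its brightest probe set, by -0.84, and higher without overlap on its dimmest, by 0.48. On the others it differed by 0.23 and -0.14 with overlap. Among the brightest probe sets of the 76 genes, 6 were of the kind named _s_at and 4 of the kind named _x_at, which can share probes with other transcripts. That of Mrpl19 was an _s_at and that of Mrpl11 an _x_at, and such sharing was not tested. Of the 156 probe sets, 113 lay at or above the median level of 6.21, with 90 of these lower and a median of -0.40. Of the 43 below it, 22 were lower and the median was -0.01.

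**Figure D4:**
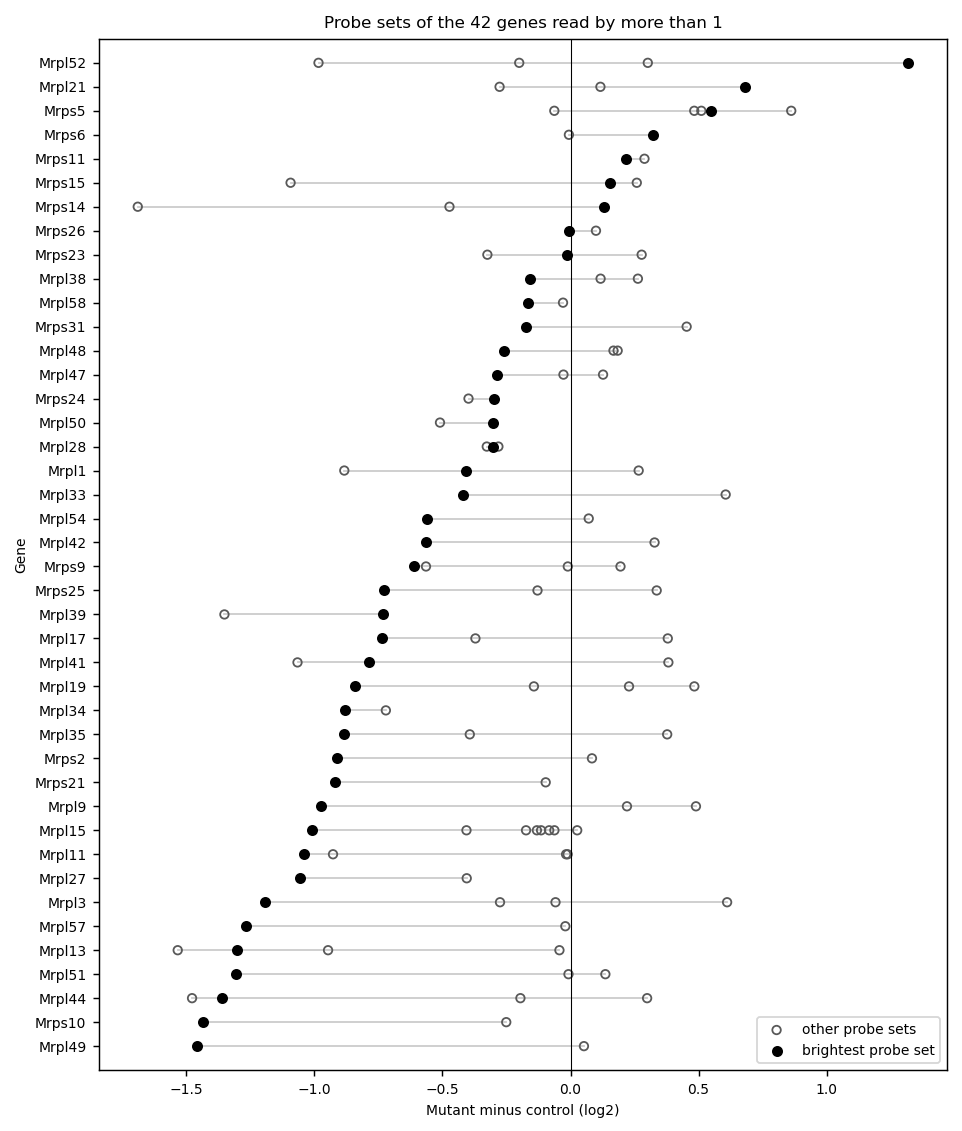
Mutant minus control difference on the log2 scale (horizontal axis) of every probe set for the 42 genes read by more than 1 (vertical axis, ordered by the brightest). Filled points are the brightest probe set of a gene and open points the others. Some open points of Mrpl52 and Mrpl3 lie on the other side of 0 from the filled point, and the open point of Mrpl39 lies on the same side.

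The other genes of mitochondrial translation were taken as a list of 51 factors, assembly proteins and additional ribosomal proteins, of which 45 were measured. None rose and 3 fell, 6.67% against 4.11% of all genes, and at an unadjusted p under 0.05 1 was higher and 9 lower. The median difference was -0.07. All 3 have a tie to the ribosome itself or to its messengers, as the list was drawn up from genes of mitochondrial translation. Gadd45gip1, a further protein of the large subunit, read 7.41, 6.80 and 6.24 in the mutants and 8.20, 8.17 and 8.56 in the controls, and fell by 1.50 (adjusted p = 0.0333 from limma). Eral1, a chaperone of the small subunit's ribosomal RNA, read 7.27, 7.29 and 7.43 against 8.15, 8.22 and 8.03 and fell by 0.80 (adjusted p = 0.0367 from limma). The mutants lay close together in Eral1 and followed the usual order in Gadd45gip1. Both falls belonged to the brightest probe set. Averaged over their probe sets, Gadd45gip1 differed by -0.60 and Eral1 by -0.36, and neither passed (adjusted p = 0.183 from limma for each).

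Slirp, which binds mitochondrial messenger RNAs together with Lrpprc, read 8.19, 6.57 and 6.78 in the mutants and 8.92, 8.83 and 8.65 in the controls, and fell by 1.62 (adjusted p = 0.0479 from limma). When each gene's probe sets were averaged, Slirp kept its difference of -1.62 but did not pass (adjusted p = 0.0644 from limma). Lrpprc read 7.58, 5.82 and 6.44 against 8.02, 8.05 and 8.27. Its difference of -1.50 without overlap did not pass (adjusted p = 0.0568 from limma). The initiation factors Mtif2 and Mtif3 differed by 0.22 and -0.36, and the elongation factors Tufm, Tsfm and Gfm1 by -0.39, -0.21 and -0.52, and none of these passed. Dap3, a small subunit protein without an Mrps name, differed by 0.36 and Chchd1, another, by -0.90, both with overlap.

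For comparison, 42 cytosolic ribosomal protein genes had a median difference of -0.14, with 1 lower and 0 higher at the threshold of limma (4 and 3 at an unadjusted p under 0.05), with all mutants below all controls in 6 and above them in 6. The lower share of 14.3% is near the 14.1% of all genes. The 82 subunits of the respiratory chain and ATP synthase, which include the partners of the proteins that the mitochondrial ribosome makes, had a median of -0.48. At the threshold of limma 6 were lower (7.32%) and 2 higher (2.44%), against 4.11% and 4.92% of all genes. All mutants lay below all controls in 39 (47.6%) and above them in 8, against 14.1% and 23.3% of all genes. The median deviations of these 82 genes were 0.12, -0.21 and -0.69 in the mutants and 0.26, 0.24 and 0.32 in the controls. The mutants were in the same order as for both ribosomal subunits. Cytosolic ribosomal protein genes gave 0.24, 0.01 and -0.35 in the mutants and 0.10, 0.08 and 0.07 in the controls. No difference between these lists was tested.

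**Figure D5:**
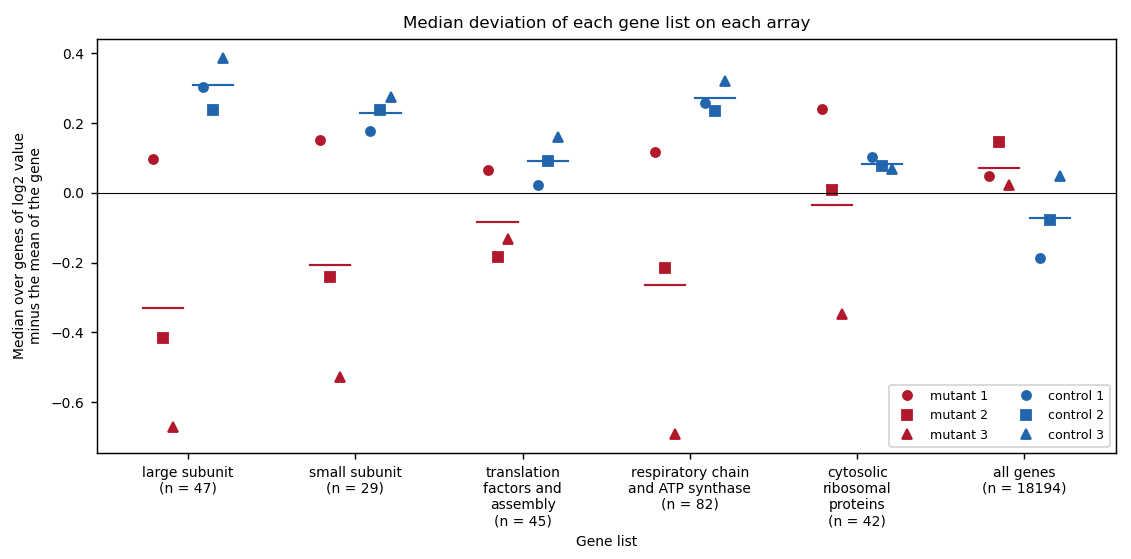
Median deviation on the log2 scale (vertical axis), taken per array over the genes of each of 6 lists (horizontal axis). Mutants are red and controls blue, the symbol gives the replicate number, and short lines mark group means. The large subunit runs from -0.67 in mutant 3 to 0.39 in control 3, and all genes stay between -0.19 and 0.15.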

How the data were processed

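Liver RNA of 6 mice was measured on Affymetrix mouse arrays, and groups came from the sample labels. The deposited log2 values, from 0 to 14.6 with 40 values of 0, were made by the authors in dChip from perfect-match probes, normalized and summarized per probe set. The methods name a worm array, whereas these probe sets carry mouse array names. The values were used as deposited. No detection calls came with them, so signal over background is unknown. The number of arrays limits precision. Genes were named from GEO's platform annotation: 34958 probe sets had 1 symbol, and 932 with several and 9211 with none were set aside.

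Each gene's brightest probe set was tested with lmFit and eBayes of limma 3.58.1 (R 4.3.3), without covariates, and Benjamini-Hochberg adjusted over all genes. The test was checked on simulated data. Single array measurements had an exact permutation test over 20 assignments. A p measures the spread between these 6 mice. Named genes were those past the threshold, the 4 largest non-overlapping differences per subunit and direction, genes chosen for their role, genes with opposed probe sets, and the brightest and dimmest members. Mrpl9, Mrpl57, Mrps11, Mrps14, Mrpl21, Mrpl32, Mrpl41, Mrpl46, Mrpl47, the promoter neighbours and factors below the threshold lie outside this rule. Members, classes and lists were chosen with earlier results of these data known. Alternatives were quantile normalization, median centring, the mean of all probe sets, every probe set, bright genes alone, a replicate block, age, trend and robust options, subunit by structure and leaving out each mouse. A block for the labelled pair of mice was added after seeing the data. Promoters were searched with Python 3.11.15, and figures drawn with matplotlib 3.10.9.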

Additional observations from a re-analysis of the deposited data

Results flagged for a closer look

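Outside the genes, the spiked-in bacterial transcripts, which report on hybridization and scanning, were higher on the mutant arrays than on the control arrays. BioB differed by 1.81, BioC by 1.66 and BioD by 1.43 on the log2 scale (exact two-sided permutation test, p = 0.1 for each, the smallest possible). BioB read 10.4 to 11.0 in mutants and 8.67 to 9.13 in controls. The highest of the mutants was mutant 2 for BioB, BioC and BioD, whereas the medians of the ribosomal genes were lowest in mutant 3. Their part in the ribosomal genes' results was not tested.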

How the results depend on the processing

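Quantile normalization left 4 large and 3 small subunit genes lower (3.06% of all genes), the mean of all probe sets 1 and 3 (1.06%) with 1 large subunit gene higher, and every probe set 2 and 3 (1.92%). The latter pair of settings left 1 translation gene lower. Among the bright genes alone 15 large and 9 small subunit genes fell, and 12.9% of all genes there. Deviations from the group mean had r = 0.18, -0.48 and -0.48 between same-numbered mice. Mutant 2 with control 3 had r = 0.61 and mutant 3 with control 2 had r = 0.38. With 3 mice in a group the deviations of a gene cancel out, so these r cannot decide which mice are paired. Control 1 and mutant 3, which a label joins, had r = 0.35. With them as a block, chosen after seeing the data, 3 large, 3 small and 1 translation genes fell and 2 large rose. With the replicate block the counts were 0 for large subunit genes higher and lower, small subunit genes lower and translation genes lower, while 30 members had an unadjusted p under 0.05 and were lower and 3 were higher. Leaving out 1 mouse gave 0 to 3 large subunit genes higher, 0 to 25 lower, 0 to 11 small subunit genes lower and 0 to 6 translation genes lower. It gave 0 small subunit and 0 translation genes higher in each case, and medians of -0.75 to -0.44 and -0.70 to -0.33. Median centring moved the median of all genes from 0.17 to 0.01 and quantile normalization to 0.06, with ribosomal medians of -0.73 and -0.65 and of -0.61 and -0.37. The mean of all probe sets gave -0.31 and -0.41. Under centring 14 members fell and 2 rose, and 5.01% of all genes fell and 2.50% rose. The 16 genes that rose or fell kept their direction in every setting, and 16 passed with age as a covariate. Leaving out a mouse could not turn that direction, as the groups did not overlap in these genes. The replicate and pair blocks, every probe set, bright genes alone and trend and robust options leave each difference as it was. Signs turned in Mrpl33 (0.092, mean of probe sets), Mrps18b (0.069, quantile normalization), Mrps18c (-0.14, centred) and Mrps23 (0.015, age). With 1 mouse left out the range was -0.27 to 0.022 for Mrpl58, -0.42 to 0.063 for Mrps18a, -0.22 to 0.16 for Mrps18b, -0.075 to 0.18 for Mrps18c and -0.15 to 0.12 for Mrps23. The causes were not tested.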
